A study of Mus musculus with 6 samples.

Results

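Neurotrophins are secreted growth factors that support the survival of neurons and tune the strength of their synapses. Each is made as a precursor that proteases cut to the mature factor; the mature factor binds a Trk receptor kinase, and precursors bind the p75 receptor together with sortilin. In the cerebral cortex brain-derived neurotrophic factor, encoded by Bdnf, is made by excitatory neurons in response to activity, and its receptor TrkB is carried by neurons and, in a form without kinase, by astrocytes. The genes described here include the ligands Bdnf and Ntf3 (neurotrophin-3). The receptors are Ntrk2 (TrkB), Ntrk3 (TrkC, the receptor of neurotrophin-3), Ngfr (p75) and Sort1 (sortilin). Vgf and Nrn1, which neurotrophins induce, are included too. These genes were measured on 6 Affymetrix arrays of mouse cerebral cortex total RNA, 3 labelled Egr1/Egr3 double knockout and 3 labelled wild type. Egr1 and Egr3 are zinc finger transcription factors that active neurons switch on, and the question is how cortical RNA differs when the pair is targeted. All probe sets whose platform gene symbol is one of the 8 genes were taken, which gave 26 of 45037 probe sets, for 7 of the 18193 genes that the annotation names. No probe set was matched to Ntf3, which was not analysed here.

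The labels give no strain, age, sex, housing or kind of knockout allele for either group, nor whether each array is a different animal; p-values therefore reflect the spread among these arrays, which may be technical. The title of double knockout replicate 1 is worded like the wild type titles and names no genotype, whereas its description names the double knockout. The targeted genes were read first. Egr3 read 339, 370 and 507 signal units in the double knockout arrays, against 1189, 2670 and 924 in the wild type arrays, with no overlap. Egr1 read 2116, 2647 and 2657 in the double knockout arrays, against 1247, 2054 and 1430 in the wild type arrays, which goes against the label. A probe set outside the deleted part of a gene checks nothing about the label, and the deleted parts are not given in the sources used here. The groups are therefore called by their labels.

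The median signal of an array was 36.2 to 39.5 units, and precision is limited by having 3 arrays a group. The RNA of double knockout replicate 2 was from a female (Xist at 3140, against at most 42.5 on the other arrays), and wild type replicate 1 had dim spiked controls, at 0.432 of the median array. The ratio of 3' to 5' Gapdh control signal, a sign of RNA quality, was 0.922, 0.9497 and 0.881 in the double knockout arrays and 0.842, 0.806 and 0.873 in the wild type arrays, without overlap. The same ratio for beta-actin was 1.89, 1.68 and 1.75 in the double knockout arrays and 1.58, 1.67 and 1.95 in the wild type arrays, with overlap. Of the glutamatergic neuron markers 5 of 6 had a probe set, and none lay below the array medians on all arrays. All 4 markers of basal forebrain cholinergic neurons, which carry p75 in the brain, lay below the array medians on all 6 arrays, as did 4 of 5 hippocampal markers (Prox1, Dsp, Tdo2 and Lct).

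Of the 26 probe sets 19 passed the filter on low values, a mean log2(signal + 16) above the median of all probe sets (a signal of about 36.6). They belong to 6 genes, and all but 1 also passed on the mean of each group alone; the exception, Ntrk3 probe set 1425070_at, passed only with the wild type arrays. Probe sets were compared with limma across all 22518 tested probe sets, and adjusted p-values are limma's, by the Benjamini-Hochberg method over that whole table with a threshold of 0.05. Log2 differences are double knockout minus wild type in log2(signal + 16), so that changes of dim probe sets come out too small.

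Of the receptor probe sets 1 passed: Ntrk3 probe set 1433825_at, 1 of 6 tested for that gene, was lower in the double knockout arrays. That call was kept in 8 of 17 alternative fits. The other 5 tested Ntrk3 probe sets did not pass. Of these 5, 4 passed the filter on the mean of each group and had log2 differences below 0; the fifth is 1425070_at. The call of 1433825_at was the only one among the 19 tested probe sets. Of all tested probe sets 1.02% were called in either direction and 0.591% as lower. Bdnf had the largest difference among the brightest probe sets of the 6 genes, with mean signal in the double knockout arrays at 46.3% of the wild type mean, and lay just outside the threshold. Ntrk2, the receptor of the Bdnf product, had log2 differences on both sides of 0. At an unadjusted p under 0.05 stood 9 of the 19, all of them lower. Of all tested probe sets 16.6% stood at that level, 8.33% as lower and 8.26% as higher. These 9 are 5 of Ntrk3, 2 of Bdnf and 1 each of Sort1 and Vgf, so they are not independent. The double knockout values lay wholly below the wild type values on 7 of the 19, against 10.7% of all tested probe sets, and wholly above them on none of the 19, against 11.5% (22.3% in either direction). The genes were chosen with earlier results of these data known, so these counts are a description.

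Bdnf is the ligand, and RefSeq (GRCm38.p6) lists 7 start sites for it among the windows used here, each running from 250 bases before to 50 after the start. One of the 7 carries the core of the cyclic AMP response element, through which calcium signals act on Bdnf transcription, and it is shown for that reason. The window is chr2:109692186-109692485 on the plus strand, and the capitals mark the match, TGACG read on the opposite strand, which begins 35 bases before the start site.

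Bdnf window: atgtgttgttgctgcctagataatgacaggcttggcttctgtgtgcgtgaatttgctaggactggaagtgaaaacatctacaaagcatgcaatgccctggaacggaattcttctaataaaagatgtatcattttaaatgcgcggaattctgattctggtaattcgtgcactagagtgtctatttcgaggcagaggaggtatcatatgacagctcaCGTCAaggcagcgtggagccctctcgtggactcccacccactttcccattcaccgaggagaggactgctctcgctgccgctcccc

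The core TGACG occurs on either strand in 20.8% of 32851 RefSeq promoter windows of 300 bases, and in 1 of the 11 windows of the 4 genes described here that have any (7 of Bdnf, 2 of Ntf3, 1 of Ntrk2 and 1 of Ngfr). The full element TGACGTCA, which contains the core, is held by 1.79% of all windows and by 0 of the 11. The Egr element GCGNGGGCG, searched on both strands with N as any base, is held by 5.55% of all windows and by 0 of the 11. These matches describe letters in these windows, and absence of a match says nothing on binding elsewhere.

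Bdnf probe set 1422168_a_at read 98.6, 118 and 152 signal units in the double knockout arrays, against 214, 358 and 224 in the wild type arrays. Every double knockout array lay below every wild type array, and wild type replicate 2 stood well above the other wild type arrays. Means were 123 ± 26.9 in the double knockout arrays and 265 ± 80.4 in the wild type arrays (SD, n = 3 each), which differ by -1.00 on the log2 scale (95% interval -1.46 to -0.54, SE 0.21, limma adjusted p = 0.0549). The second Bdnf probe set, 1422169_a_at, read 98.2, 80.5 and 99.9 in the double knockout arrays, against 125, 272 and 155 in the wild type arrays. The groups again did not overlap, and wild type replicate 2 was again the highest array. On the log2 scale they differed by -0.82 (SE 0.23, limma adjusted p = 0.133), and by -0.52 without wild type replicate 2 (limma adjusted p = 0.171). Wild type replicate 2 was also the array with the highest Egr3 signal. Without that array the first Bdnf probe set had a log2 difference of -0.78 (limma adjusted p = 0.0706), and leaving out each array in turn gave -1.15 to -0.78, with no fit past the threshold. It passed with the robust trend (0.0489). In cortex RNA fewer cells of a type and less RNA per cell cannot be told apart.

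**Figure D1:**
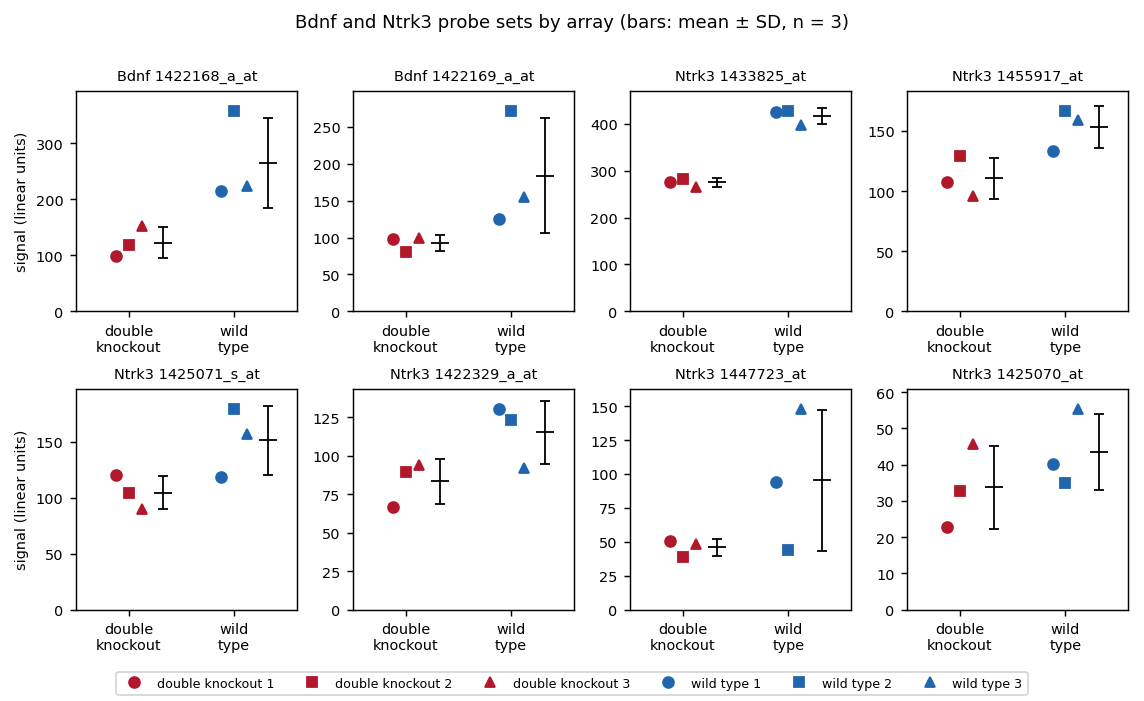
Signal (linear units) of the 2 Bdnf and 6 tested Ntrk3 probe sets on each array, with the double knockout arrays left and the wild type arrays right of each panel; marker shapes give the replicate number, and bars are the mean ± SD (n = 3). Both Bdnf probe sets and Ntrk3 probe sets 1433825_at and 1455917_at show no overlap between the groups, and wild type replicate 2 is the highest array for both Bdnf probe sets.

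Ntrk3 encodes TrkC, the kinase receptor that binds neurotrophin-3. Probe set 1433825_at read 276, 283 and 266 signal units in the double knockout arrays, against 425, 428 and 398 in the wild type arrays. The arrays of each group lay close together and the groups did not overlap. Means were 275 ± 8.85 in the double knockout arrays and 417 ± 16.4 in the wild type arrays (SD, n = 3 each), so this signal fell to 66.0% of wild type (log2 -0.57, SE 0.10, 95% interval -0.80 to -0.35, limma adjusted p = 0.0337). By unadjusted p it ranked 128 of 22518 tested probe sets, against rank 269 for the first Bdnf probe set. Leaving out wild type replicate 1 (adjusted p = 0.0808), wild type replicate 3 (0.0577), double knockout replicate 1 (0.0877), double knockout replicate 2 (0.123) or double knockout replicate 3 (0.156) ended the call, and leaving out wild type replicate 2 did not (0.0483). In those 6 fits the log2 difference stayed between -0.60 and -0.55. The call was also lost with the replicate number as a block (limma adjusted p = 0.0658), with no intensity trend (0.0684), with no filter (0.104) and without both double knockout replicate 2 and wild type replicate 1 (0.234).

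Ntrk3 probe set 1455917_at read 107, 129 and 95.5 in the double knockout arrays, against 133, 167 and 159 in the wild type arrays. It is the only other tested Ntrk3 probe set whose groups did not overlap, and its log2 difference was -0.42 (limma adjusted p = 0.207). Probe set 1425071_s_at read 120, 104 and 89.8 in the double knockout arrays, against 118, 179 and 157 in the wild type arrays (log2 -0.46, limma adjusted p = 0.217). Here wild type replicate 1 lay among the double knockout arrays. Probe set 1422329_a_at read 66.5, 89.7 and 93.9 in the double knockout arrays, against 130, 123 and 91.7 in the wild type arrays (log2 -0.40, limma adjusted p = 0.288). Wild type replicate 3 was the wild type array that overlapped. Probe set 1447723_at read 50.5, 38.9 and 48.0 in the double knockout arrays, against 94.2, 43.9 and 148 in the wild type arrays. The wild type arrays were far apart, the log2 difference of -0.74 did not pass (limma adjusted p = 0.263), and without wild type replicate 2 it did (-1.13, adjusted p = 0.0387). Without wild type replicate 3 the difference was -0.40 (limma adjusted p = 0.498). The dim probe set 1425070_at read 22.7, 32.6 and 45.8 in the double knockout arrays and 40.1, 35.0 and 55.3 in the wild type arrays (log2 -0.27, limma adjusted p = 0.565). Of the untested Ntrk3 probe sets, 1443970_at lay at 6.90 to 10.8 in the double knockout arrays and 10.6 to 17.4 in the wild type arrays. The other, 1426003_at, lay at 1.67 to 22.9 in the double knockout arrays and 1.05 to 7.06 in the wild type arrays, and is the only one of the 8 Ntrk3 probe sets with a higher mean log2 signal in the double knockout arrays. Which transcript forms of Ntrk3 each probe set reads is not given in the sources used here.

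Ntrk2 encodes TrkB, the kinase receptor that binds the Bdnf product. None of its 6 tested probe sets passed, in any alternative, and the groups overlapped on all 6. Which of them read the form with or without kinase is not given in the sources used here. Probe set 1458622_at read 1631, 1523 and 1531 in the double knockout arrays, against 1520, 2136 and 1693 in the wild type arrays (log2 -0.18, 95% interval -0.46 to 0.11, limma adjusted p = 0.530). Wild type replicate 2 was the high array, as for Bdnf. The other 5 had log2 differences above 0, from 0.05 to 0.23. Probe set 1435196_at had the largest of them, at 692, 607 and 784 in the double knockout arrays and 597, 491 and 691 in the wild type arrays (95% interval -0.09 to 0.54, limma adjusted p = 0.453). Probe set 1420838_at was the steadiest, at 947, 970 and 945 in the double knockout arrays and 962, 849 and 959 in the wild type arrays (95% interval -0.16 to 0.26). Of the 2 untested Ntrk2 probe sets, 1420837_at lay at 23.5 to 43.9 in the double knockout arrays and 30.0 to 44.6 in the wild type arrays, and 1444121_at at 0.368 to 6.81 in the double knockout arrays and 3.77 to 9.50 in the wild type arrays.

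**Figure D2:**
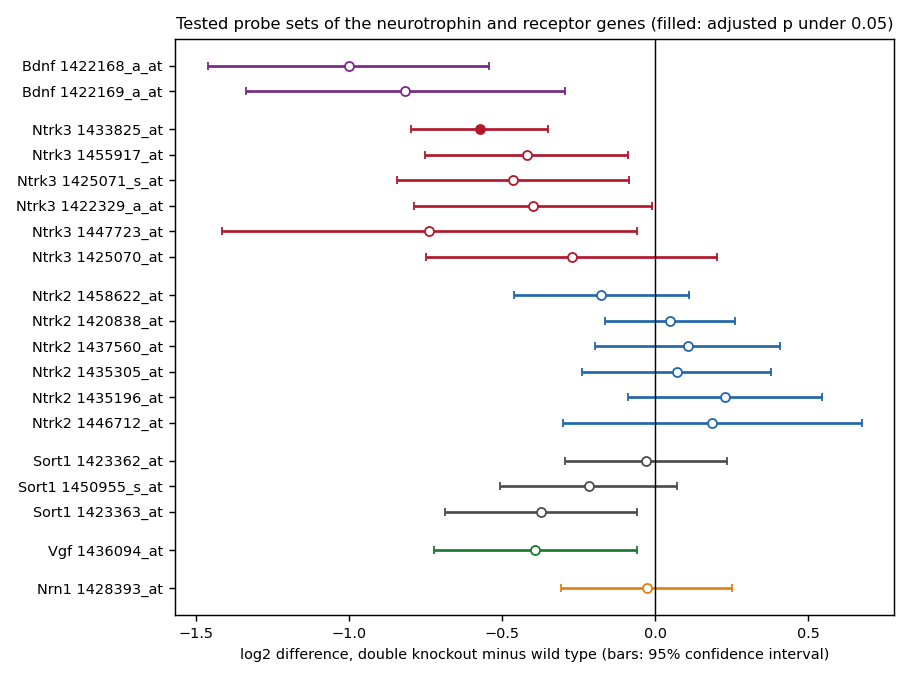
Log2 difference, double knockout minus wild type, of the 19 tested probe sets of the 6 genes, with the 95% confidence interval of the limma fit as bars and a filled point where the adjusted p is under 0.05. All 6 Ntrk3 points (1 of them, 1425070_at, tested only through its wild type signal) and both Bdnf points lie left of 0, 5 of the 6 Ntrk2 points lie right of 0, and the only filled point is Ntrk3 probe set 1433825_at at -0.57.

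Both Trk receptor genes had 6 tested probe sets, so their averages over probe sets were set side by side on each array, as log2 signal minus the wild type mean. Ntrk3 holds the only call, so this comparison restates values given above and adds no support to that call. Ntrk3 stood at -0.53, -0.45 and -0.45 in the double knockout arrays, against -0.04, -0.08 and 0.12 in the wild type arrays. Ntrk2 stood at 0.03, 0.14 and 0.06 in the double knockout arrays, against -0.13, 0.0089 and 0.12 in the wild type arrays. Each probe set counts alike in these averages, whatever its signal or transcript form. The Ntrk3 groups were apart and the Ntrk2 groups overlapped. Within arrays, Ntrk3 minus Ntrk2 was -0.56, -0.59 and -0.51 in the double knockout arrays, against 0.09, -0.09 and 0.0016 in the wild type arrays. Without 1425070_at, which passed the filter only through the wild type arrays (a choice made after the data were seen), the Ntrk3 average over 5 probe sets was -0.52, -0.48 and -0.56 in the double knockout arrays, against -0.03, -0.06 and 0.09 in the wild type arrays. Ntrk3 minus Ntrk2 was then -0.54, -0.63 and -0.62 in the double knockout arrays, against 0.09, -0.07 and -0.03 in the wild type arrays. The 2 groups did not overlap in this difference in either form; it is given as a description, since the smallest two-sided p of an exact permutation test with 3 arrays a group is 0.1.

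**Figure D3:**
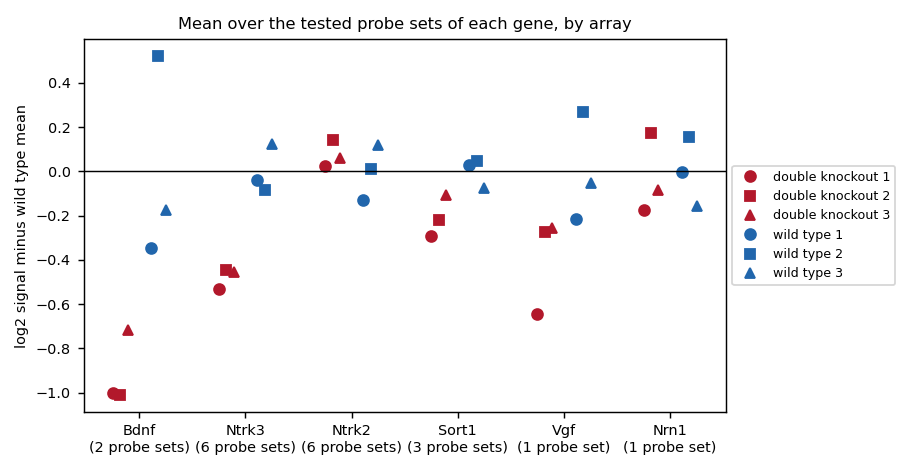
Log2 signal minus the wild type mean, averaged over the tested probe sets of each gene, for each array (double knockout arrays left of the wild type arrays within each gene; marker shapes give the replicate number). The groups stand apart for Bdnf, Ntrk3, Sort1 and Vgf and overlap for Ntrk2 and Nrn1. The gap is narrow for Sort1 (-0.108 in double knockout replicate 3, -0.075 in wild type replicate 3). It is also narrow for Vgf (-0.25 in double knockout replicate 3, -0.22 in wild type replicate 1).

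Ngfr encodes p75, which binds all neurotrophins and, with sortilin, their precursors. Its 3 probe sets were too dim to be tested. Probe set 1454903_at read 20.1, 22.9 and 16.8 in the double knockout arrays, against 20.4, 16.3 and 21.6 in the wild type arrays, below the median of every array. The groups overlapped. The other 2 read at most 4.99 in the double knockout arrays and at most 3.56 in the wild type arrays, near the bottom of the scale.

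Sort1 encodes sortilin, which binds neurotrophin precursors at the cell surface and sorts them inside the cell. None of its 3 probe sets passed, and they differ in size. Probe set 1423362_at read 997, 1210 and 1259 in the double knockout arrays, against 1071, 1172 and 1286 in the wild type arrays, which overlapped (log2 -0.03, 95% interval -0.29 to 0.24). Probe set 1423363_at read 110, 119 and 131 in the double knockout arrays, against 166, 178 and 136 in the wild type arrays (log2 -0.37, SE 0.14, limma adjusted p = 0.228). Probe set 1450955_s_at read 163, 145 and 163 in the double knockout arrays, against 208, 184 and 165 in the wild type arrays (log2 -0.22, SE 0.13, limma adjusted p = 0.431), and without wild type replicate 1 the difference was -0.14. On 1423363_at and 1450955_s_at every double knockout array lay below every wild type array.

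Vgf encodes a secreted precursor of neuropeptides that nerve growth factor and Bdnf induce. It read 661, 858 and 871 in the double knockout arrays, against 895, 1259 and 1003 in the wild type arrays. The groups did not overlap, though double knockout replicate 3 and wild type replicate 1 were close. The log2 difference was -0.39 (SE 0.15, 95% interval -0.72 to -0.06, limma adjusted p = 0.230). Wild type replicate 2 was again the highest array, and without it the difference was -0.26. Nrn1 encodes neuritin, a membrane-anchored protein induced by activity and neurotrophins that promotes neurite growth. It read 2329, 2975 and 2483 in the double knockout arrays, against 2629, 2936 and 2364 in the wild type arrays. The groups overlapped fully (log2 -0.03, 95% interval -0.31 to 0.25, limma adjusted p = 0.943).

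Markers of other cells were read beside these values, as summed signals over the brightest probe set of each gene. The 6 microglia markers summed to 1918 to 2393 in the double knockout arrays and 2470 to 2910 in the wild type arrays. All 5 tested ones were lower and none passed. P2ry12 and C1qa did not overlap between the groups, and the others, with the bright Csf1r, did. The 6 pericyte and meninges markers summed to 1046 to 1216 in the double knockout arrays and 1595 to 2525 in the wild type arrays. All 5 tested ones were lower and none passed, and only Rgs5 did not overlap between the groups. Dcn had the largest difference of them (log2 -1.49, limma adjusted p = 0.161), with wild type arrays as far apart as 173 and 907. The 6 astrocyte markers summed to 5306 to 5784 in the double knockout arrays and 6005 to 6336 in the wild type arrays. Of these the water channel gene Aqp4 fell (log2 -0.96, limma adjusted p = 0.0139), a call lost without wild type replicate 1 (0.0568) or double knockout replicate 3 (0.0670). That Aqp4 call, of its brightest probe set, was kept in 13 of 17 alternatives, with limma adjusted p-values up to 0.155. The other 2 of its 3 tested probe sets also passed with all arrays. The other 5 astrocyte markers did not pass and did not run one way. The glutamate transporter gene Slc1a3 read 1220, 1408 and 1491 in the double knockout arrays, against 1050, 1071 and 1014 in the wild type arrays (log2 0.38, limma adjusted p = 0.118). Gfap, an intermediate filament gene, read 553, 193 and 596 in the double knockout arrays, against 775, 609 and 806 in the wild type arrays. Its groups did not overlap (log2 -0.83, limma adjusted p = 0.258). Aldh1l1, Gja1 and Fgfr3 lay between -0.12 and -0.02 with overlap between the groups. Oligodendrocyte markers, 5 of 6 with a probe set, summed to 18283 to 20883 in the double knockout arrays and 15252 to 17671 in the wild type arrays. The bright Mbp (log2 0.37, limma adjusted p = 0.258) and Cnp (0.28, 0.213) were higher without overlap. Mog, Mag and Mobp overlapped, and Mobp had a difference of -0.05. None of the markers of these 4 lists lay below the array medians on all arrays. These 4 sums and the Gapdh ratio split by group as Ntrk3 probe set 1433825_at and Bdnf did, and their part in those differences was not tested. Summed glutamatergic neuron, upper layer, deep layer, GABA neuron and oligodendrocyte precursor markers overlapped between the groups, as did endothelial, striatal and hippocampal ones. These sums hide neuron markers that ran both ways, none of which passed. Deep layer Fezf2 was higher without overlap (log2 0.48, limma adjusted p = 0.0586). Glutamatergic Neurod6 (log2 -0.44, limma adjusted p = 0.154) and upper layer Lhx2 (-0.15, 0.506) were lower without overlap. Slc17a7 was higher with overlap (0.62, 0.252). Of the 4 tested striatal markers 2 were higher and 2 lower, and none passed. The lower ones were Penk (log2 -1.10, limma adjusted p = 0.215) and Rgs9 (-0.50, 0.228), both with overlap. Choroid plexus markers ranged widely in both groups, at 102 to 4780 in the double knockout arrays and 158 to 10927 in the wild type arrays. None of the 8 genes lies on the chromosome of Egr1 or of Egr3.

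The genes with the most similar pattern were sought for the brightest tested probe sets of Bdnf and Ntrk3, as the root mean square difference between log2 signals over the 6 arrays, each centred on its own mean. Nearest to Bdnf were Ptgs2, a prostaglandin synthase (0.131), Pxdn, a peroxidase of the extracellular matrix (0.157), and Ccnd1, a D-type cyclin (0.175), which passed without wild type replicate 3 (log2 -1.13, limma adjusted p = 0.0343) and not with all arrays (0.0624). Ptgs2 read 24.6, 20.1 and 40.3 in the double knockout arrays, against 54.8, 98.0 and 65.5 in the wild type arrays. Like Bdnf it was highest in wild type replicate 2, and it did not pass (log2 -1.00, limma adjusted p = 0.0760). Nearest to Ntrk3 were Trmt10a, a tRNA methyltransferase (0.0174), Rgs10, a regulator of G-protein signalling (0.0501), and Commd10 (0.0508). Rgs10 read 275, 255 and 240 in the double knockout arrays, against 381, 389 and 365 in the wild type arrays, and passed (log2 -0.53, limma adjusted p = 0.0493). That call was lost in each of the 6 fits with an array left out, with adjusted p-values of 0.0696 (without wild type replicate 2) to 0.214 (without double knockout replicate 3). Many tested probe sets share a split by group, so nearness over 6 arrays is a description.

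Other genes of the pathway were read from 8 lists, each gene by its brightest tested probe set. Of 94 genes 79 had a probe set and 76 were tested, 43 of them higher and 33 lower in the double knockout arrays. The calls were 2, both higher, where 1.02% of all tested probe sets were called. The median log2 difference of the 76 was 0.03, against 0.0093 over all tested probe sets.

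Among other ligands and receptors Sorcs1 rose, and the other 5 of 6 tested genes did not pass. Sorcs1 encodes a sorting receptor of the sortilin family. It read 161, 245 and 183 in the double knockout arrays, against 107, 109 and 88.6 in the wild type arrays, with no overlap (log2 0.84, SE 0.17, limma adjusted p = 0.0491). Its second tested probe set read 61.0, 73.2 and 60.5 in the double knockout arrays, against 48.1, 40.2 and 40.6 in the wild type arrays (log2 0.46, limma adjusted p = 0.190). The call was lost in each of the 6 fits with an array left out, with adjusted p-values of 0.0538 (without double knockout replicate 1) to 0.169 (without double knockout replicate 2). Sorcs2, a family member that binds neurotrophin precursors with p75 and was chosen here after its values were seen, read 247, 261 and 239 in the double knockout arrays and 196, 153 and 201 in the wild type arrays (log2 0.42, limma adjusted p = 0.162).

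Granins, proteins of the dense-core vesicles that also carry Bdnf, had log2 differences above 0 in all 6 tested genes of a list of 7, with a median of 0.21. The other, the Nrn1 paralog Nrn1l, was too dim to test. Scg5, which encodes a chaperone of a prohormone convertase, rose and the other 5 did not pass. It read 2878, 3159 and 3071 in the double knockout arrays, against 2095, 2297 and 1927 in the wild type arrays (log2 0.53, SE 0.10, limma adjusted p = 0.0497). That call was lost in 5 of the 6 fits with an array left out, all but the one without wild type replicate 2. Vgf, a granin-like protein described above, had a difference of the opposite sign.

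No gene passed in the other 6 lists. Of 8 tested genes that process or sort neurotrophin precursors 4 were higher and 4 lower (median 0.07). Serpini1, an inhibitor of tissue plasminogen activator, stood at 2526 ± 114 in the double knockout arrays and 1898 ± 273 in the wild type arrays (limma adjusted p = 0.128), and Cpe, a carboxypeptidase that sorts the Bdnf precursor, at 8630 ± 290.2 in the double knockout arrays and 6733 ± 1764 in the wild type arrays (limma adjusted p = 0.284). Serpini1 passed without wild type replicate 2 (limma adjusted p = 0.0483) and Cpe without wild type replicate 3 (log2 0.59, limma adjusted p = 0.0312). With all arrays Cpe had a log2 difference of 0.39, which was 0.23 without wild type replicate 1 (limma adjusted p = 0.475) and 0.15 after quantile normalization (0.326). Of 20 tested Trk adaptors and modulators 11 were higher and 9 lower (median 0.02). The smallest p-values there were those of Rapgef1, an exchange factor for Rap GTPases, with a log2 difference of 0.44 (limma adjusted p = 0.112), and the adaptor Shc3, with one of -0.58 (limma adjusted p = 0.192). Of 13 tested genes of the Ras, MAP kinase and PI3 kinase cascade 5 were higher and 8 lower (median -0.13). Rps6ka3, a kinase activated by MAP kinases, stood at 341 ± 20.3 in the double knockout arrays and 545 ± 125 in the wild type arrays (log2 -0.63, limma adjusted p = 0.0982), and Pik3r1, a PI3 kinase subunit, had a log2 difference of 0.38 (limma adjusted p = 0.207). Rps6ka3 passed without wild type replicate 3 (log2 -0.81, limma adjusted p = 0.0258).

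Of 8 tested p75 effectors 6 were higher and 2 lower (median 0.04), with Irak1, a kinase of the p75 and interleukin pathways, at a log2 difference of 0.73 (limma adjusted p = 0.138; 0.45 without wild type replicate 3) and Zfp110, a zinc finger protein that binds p75, at 0.40 (limma adjusted p = 0.245). Of 11 tested regulators of Bdnf transcription 7 were higher and 4 lower (median 0.02). Mef2d, a calcium-responsive transcription factor, read 1053, 1005 and 1039 in the double knockout arrays and 854, 870 and 834 in the wild type arrays (log2 0.27, limma adjusted p = 0.183), and Usf1 had a log2 difference of 0.61 (limma adjusted p = 0.345), which was 0.26 without wild type replicate 2 and 1.00 without wild type replicate 1. Of the 4 cortical neuropeptide genes whose expression is known to depend on Bdnf, 1 was higher and 3 were lower. Cort, which encodes cortistatin, read 94.6, 185 and 146 in the double knockout arrays, against 84.6, 44.6 and 68.7 in the wild type arrays (log2 0.93, limma adjusted p = 0.109). Tac1, the precursor of substance P, read 290, 288 and 244 in the double knockout arrays, against 325, 419 and 406 in the wild type arrays (log2 -0.46, limma adjusted p = 0.128). Neither overlapped between the groups, and they lay on opposite sides of 0.

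**Figure D4:**
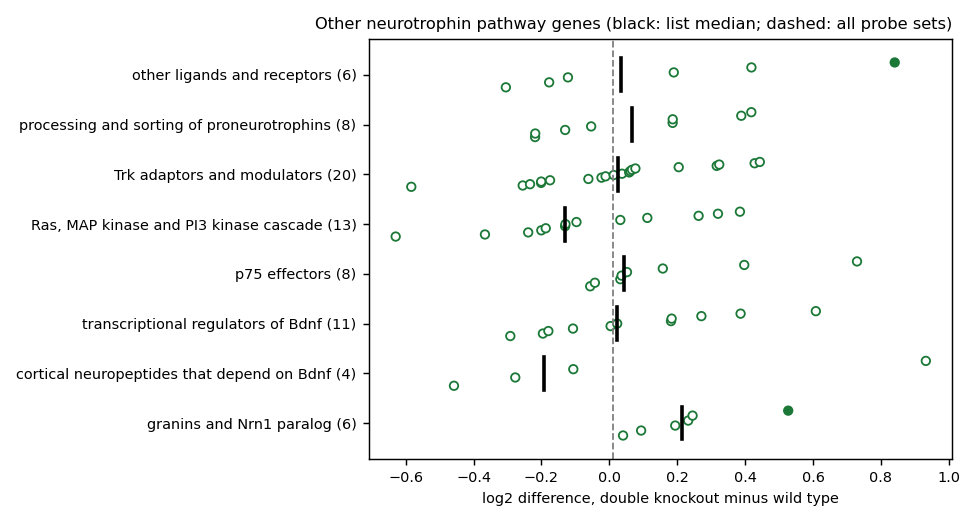
Log2 difference, double knockout minus wild type, of each tested gene of the 8 pathway lists (number tested in brackets), with a black bar at the list median and a dashed line at the median of all tested probe sets. Filled points have an adjusted p under 0.05 and are Sorcs1 (0.84) and Scg5 (0.53); the list medians run from -0.19 for the neuropeptides to 0.21 for the granins.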

How the data were processed

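The deposited table holds linear probe set intensity signals, summarised by the authors with software and settings not given in the sources used here. Trimmed by 2% at each end, the mean of every array was 150.0; this scaling of the authors was kept, and a change in total RNA would not show. All columns were used. Platform annotation gave 1 symbol for 34945 of 45037 probe sets, several for 932 and none for 9160, and names were updated by gene number from RefSeq (GRCm38.p6). Signals below 1 were raised to 1. The 22518 probe sets whose mean log2(signal + 16) exceeded the median were tested with limma 3.58.1 (R 4.3.3), with the group as sole term, a trended eBayes prior, two-sided p-values and Benjamini-Hochberg adjustment. This fit was also run on simulated data with independent noise for each value. Those data hold no array effects, so they do not bear on how calls depend on single arrays. Figures used matplotlib 3.10.9.

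The genes, pathway and marker lists were chosen with earlier results of these data known. The rule named every probe set of the chosen genes, the pathway genes past the threshold or else the 2 of a list with the smallest p, and the 3 nearest patterns to Bdnf and Ntrk3. Alternatives changed the pseudocount (1 or 64), the scaling (quantiles or a common median), the filter (none, or the 75% quantile), the variance model (untrended or robust), array weights, the arrays (each left out, and both doubted ones together) and the replicate number as a block. For the named pathway genes these were added after the data were seen.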

Additional observations from a re-analysis of the deposited data

How the results depend on the processing

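The count of called probe sets, 229 over all tested, was 10 with no filter, 131 with no intensity trend, 12 without the pair of doubted arrays (double knockout 2 and wild type 1), and 34 to 292 when each array was left out in turn (143, 53 and 34 without double knockout replicates 1, 2 and 3, and 97 without wild type replicate 1). The count of 1 among the 19 probe sets described here became 0 with no filter, with no intensity trend and without both doubted arrays, 2 with the robust trend, where Bdnf joined Ntrk3, and 0 to 2 when each array was left out. The Ntrk3 call (probe set 1433825_at) had a log2 difference of -0.60 to -0.50 and an adjusted p of 0.0266 to 0.234 over all alternatives; Bdnf probe set 1422168_a_at had -1.15 to -0.78 and 0.0465 to 0.250. The groups share replicate numbers, and the labels do not say whether these pair the arrays. Deviations from the group means correlated across probe sets at -0.147, 0.00129 and -0.101 for same-numbered arrays. For differently numbered arrays they correlated at -0.0517 to 0.142. These values show no pairing by number and cannot exclude one, since deviations from a mean of 3 arrays are not independent. With the replicate block 182 probe sets passed, Ntrk3 had an adjusted p of 0.0658 and Bdnf 0.0465, and the pathway calls of Sorcs1 (0.0525) and Scg5 (0.0961) were lost. Sorcs1 kept its call in 6 of 16 alternatives and Scg5 in 5 of 17.

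Signs turned on 6 probe sets, none of them called in any alternative. With each array left out in turn the log2 difference of Nrn1 ran from -0.130 to 0.050, that of Sort1 probe set 1423362_at from -0.0934 to 0.0725, and those of Ntrk2 probe sets 1420838_at, 1437560_at and 1435305_at from -0.0100 to 0.0788, -0.0378 to 0.195 and -0.0408 to 0.207. Without both doubted arrays Ntrk2 probe sets 1437560_at, 1435305_at and 1446712_at stood at -0.111, -0.117 and -0.0284. The cause of these moves was not tested. Dim signal limits Ngfr and 4 probe sets of Ntrk2 and Ntrk3, which were described without a test.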
